A study of Mus musculus with 31 samples.

Results

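The genes described here are 10 genes of endoplasmic reticulum (ER) protein folding and of the unfolded protein response (UPR): Hspa5, Hsp90b1, Calr, Hyou1, Sdf2l1, Dnajb9, Pdia4, Creld2, Xbp1 and Herpud1. They were taken by symbol from the deposited count tables of both tissues, and all 10 were found there, out of 16929 genes in either table. The data are RNA-seq counts from liver and from epididymal white adipose tissue (eWAT, the fat pad beside the epididymis) of C57BL/6 wild-type male mice of the F1 generation, 24 weeks old. There were 15 liver libraries (4 of arm LF, 5 of HF, 6 of HFLF) and 16 of eWAT (4, 6 and 6). The arms carry the diet tags LFD, HFD and HFLFD, but the labels give 1 feeding schedule for all animals, with chow up to 6 weeks of age and the LFD diet for the next 18 weeks. The tag was therefore read as the arm of the father's line, a reading that rests on the title of the series and that no label spells out.

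Proteins bound for secretion or for membranes fold inside the ER, where chaperones hold unfolded chains, lectin chaperones retain glycoproteins and disulfide isomerases form and reshuffle their disulfide bonds. When unfolded chains accumulate, the sensors IRE1, PERK and ATF6 start the UPR. IRE1 splices the mRNA of Xbp1, ATF6 is cleaved into a transcription factor, and both raise the transcription of chaperone genes, while PERK slows translation. Hepatocytes secrete most plasma proteins and hold abundant rough ER, and adipocytes secrete adiponectin and leptin.

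Among the chaperones, Hspa5 (ENSMUSG00000026864.13, chr2:34771970-34777547) encodes BiP, the Hsp70 of the ER lumen, which also binds the 3 sensors. Hsp90b1 (ENSMUSG00000020048.13, chr10:86690209-86705509) encodes GRP94, the Hsp90 of the ER. Calr (ENSMUSG00000003814.8, chr8:84841850-84846934) encodes calreticulin, a lectin chaperone that stores calcium. Hyou1 (ENSMUSG00000032115.14, chr9:44379490-44392369) encodes GRP170, which exchanges nucleotide on BiP. Sdf2l1 (ENSMUSG00000022769.9, chr16:17130138-17132383) encodes a small partner of BiP and of the J protein ERdj3. Dnajb9 (ENSMUSG00000014905.4, chr12:44205559-44210326) encodes ERdj4, a J protein that helps BiP to restrain IRE1. Pdia4 (ENSMUSG00000025823.9, chr6:47796141-47813430) encodes the disulfide isomerase ERp72, and Creld2 (ENSMUSG00000023272.4, chr15:88819646-88826683) an ER protein induced by stress with isomerase-like activity. Xbp1 (ENSMUSG00000020484.19, chr11:5520659-5525893) encodes the transcription factor downstream of IRE1, and counts per gene do not separate its spliced from its unspliced mRNA. Herpud1 (ENSMUSG00000031770.16, chr8:94386438-94395377) encodes a membrane protein of the complex that sends misfolded proteins to degradation. Coordinates are those of GENCODE M21 on GRCm38.

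The promoters of 5 members hold elements through which this response is known to act. The ER stress response element (ERSE, searched as CCAAT and CCACG with any 9 bases between them on both strands of the 300 bases around each RefSeq start on GRCm38.p6) is the site of NF-Y and ATF6. It was found in 4 of the 9 members with a RefSeq promoter, Hspa5, Hsp90b1, Calr and Creld2, against 39 of all 32851 promoters, or 0.119%. ERSE-II, searched as ATTGG and CCACG with any 1 base between them, was found in Herpud1 and in 12 promoters of all, or 0.0365%. The 7-base sequence TGACGTG, a site bound by XBP1 and ATF6, was found in Hspa5 and in 2.01% of all promoters. Sdf2l1, Dnajb9, Pdia4 and Xbp1 held none of these 3 letter strings in the window, and the table has no entry for Hyou1. The 5 promoters with a match are shown because they carry these elements in capitals. Each run reads 5′ to 3′ on the gene's strand and stops before the first annotated exon. An element on the other strand appears as its reverse complement, as in Calr, Creld2 and the second of the pair in Hsp90b1. The windows are chr2:34771840-34771969 (plus strand) for Hspa5, chr10:86705510-86705694 (minus strand) for Hsp90b1, chr8:84846935-84847181 (minus strand) for Calr, chr15:88819396-88819645 (plus strand) for Creld2 and chr8:94386179-94386428 (plus strand) for Herpud1. The ERSE of Hspa5 lies 65 bases before the RefSeq start and inside an exon of another annotated transcript, so the site alone is given.
Hspa5 upstream, TGACGTG in capitals: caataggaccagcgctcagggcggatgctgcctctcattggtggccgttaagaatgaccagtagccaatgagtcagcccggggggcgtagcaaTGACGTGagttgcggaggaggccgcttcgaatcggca
Hspa5 ERSE: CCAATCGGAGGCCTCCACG
Hsp90b1 upstream, ERSE in capitals: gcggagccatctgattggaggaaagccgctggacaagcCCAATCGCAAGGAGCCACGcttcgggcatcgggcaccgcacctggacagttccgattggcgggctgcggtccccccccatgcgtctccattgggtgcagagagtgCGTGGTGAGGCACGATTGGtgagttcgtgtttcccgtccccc
Calr upstream, ERSE in capitals: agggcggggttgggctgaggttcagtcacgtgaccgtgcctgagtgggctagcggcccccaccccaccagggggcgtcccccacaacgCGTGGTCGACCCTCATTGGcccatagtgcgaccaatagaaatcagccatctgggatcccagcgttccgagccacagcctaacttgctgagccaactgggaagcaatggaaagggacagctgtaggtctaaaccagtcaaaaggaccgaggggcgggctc
Creld2 upstream, ERSE in capitals: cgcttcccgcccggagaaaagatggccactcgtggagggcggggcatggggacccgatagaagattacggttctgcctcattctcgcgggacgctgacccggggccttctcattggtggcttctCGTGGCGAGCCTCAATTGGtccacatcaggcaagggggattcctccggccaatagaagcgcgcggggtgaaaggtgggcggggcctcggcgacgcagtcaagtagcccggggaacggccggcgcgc
Herpud1 upstream, ERSE-II in capitals: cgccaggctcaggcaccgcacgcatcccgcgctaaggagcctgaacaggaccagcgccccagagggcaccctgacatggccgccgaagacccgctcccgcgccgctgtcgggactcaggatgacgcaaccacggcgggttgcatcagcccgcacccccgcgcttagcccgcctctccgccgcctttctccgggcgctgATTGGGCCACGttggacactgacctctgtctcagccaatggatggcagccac
Hsp90b1 had 2 ERSE matches, 1 on each strand, and Hspa5, Calr and Creld2 had 1 each. A letter match is a description of the sequence and was not tested for binding. The elements are known from this response and the members were chosen as its genes. The shares beside all promoters are therefore no test of enrichment.

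The liver table held 13677 genes and between 9225373 and 17268415 counts per library, and that of eWAT held 15987 genes and between 9278083 and 27230205 counts. The tissue labels matched the markers. Alb, the main plasma protein of hepatocytes, had a median of 64173 CPM (counts scaled to a common library size) in liver and 42.2 in eWAT, while Adipoq, Plin1 and Lep were absent from the liver table and had medians of 3573, 2679 and 1770 CPM in eWAT. In eWAT, 5 libraries (LF 3, LF 5, LF 6, HF 2 and HF 6) had testis germ cell genes above a mean log2 CPM of 0.5, and 3 (LF 2, HF 3 and HF 5) had B cell genes above 3. In bulk tissue, fewer cells of a type and less RNA per cell cannot be told apart.

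The abundance of the members differed more than 10-fold within a tissue. Per kilobase of exon, Calr was the most abundant in liver, with 276 ± 95.8 RPKM (CPM per kilobase of exon, computed here from the counts; mean ± SD, n = 15). It was followed by Herpud1 with 196 ± 50.4, Hsp90b1 with 163 ± 45.8, Hspa5 with 104 ± 29.7, Pdia4 with 77.3 ± 25.8 and Xbp1 with 70.6 ± 17.9 RPKM. Lower levels were those of Sdf2l1 with 31.5 ± 17.8, Creld2 with 21.04 ± 9.08, Hyou1 with 17.4 ± 6.25 and Dnajb9 with 16.5 ± 3.36 RPKM. Along this order, Xbp1 and Sdf2l1 were the only neighbours in liver whose means lay farther apart than their SDs reach. In eWAT, Calr also led, with 172 ± 20.4 RPKM (n = 16), and Hsp90b1 (103 ± 12.3), Hspa5 (83.2 ± 9.25), Xbp1 (69.1 ± 7.02) and Pdia4 (54.8 ± 5.86) came next. Herpud1 stood only at the sixth place there, with 38.3 ± 4.39 RPKM. The lowest levels in eWAT were those of Sdf2l1 (17.5 ± 4.73), Creld2 (17.1 ± 2.81), Dnajb9 (15.4 ± 2.07) and Hyou1 (12.3 ± 0.860). In eWAT the neighbours Hsp90b1 and Hspa5, Hspa5 and Xbp1, Sdf2l1 and Creld2, and Creld2 and Dnajb9 lay within their SDs.

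All 10 members were higher in liver than in eWAT. With edgeR's quasi-likelihood test over 12735 genes, each passed an adjusted p of 0.05 (Benjamini-Hochberg over all genes), where 85.5% of all genes passed in either direction and 42.6% passed as higher in liver. The largest difference was that of Herpud1, the degradation gene. It had 622 ± 159 CPM in liver and 72.7 ± 8.42 in eWAT on the scale shared by both tissues, with every liver library (353 to 804) above every eWAT library (56.6 to 92.7), and a log2 difference of 3.09 ± 0.12 (SE; edgeR adjusted p = 5.08e-21). Sdf2l1 followed with a log2 difference of 1.61 ± 0.23, but its liver libraries ran from 10.47 to 113 CPM and overlapped the 8.76 to 23.6 CPM of eWAT. For the chaperones the log2 differences were 1.42 ± 0.14 for Calr, 1.42 ± 0.11 for Hsp90b1, 1.26 ± 0.13 for Hyou1 and 1.06 ± 0.11 for Hspa5. Those of the folding enzyme Pdia4 and of Creld2 were 1.24 ± 0.13 and 1.05 ± 0.15. The smallest were those of Dnajb9 with 0.83 ± 0.09 and Xbp1 with 0.77 ± 0.10, and differences between members were not tested.

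Ranges did not overlap between the tissues for 6 members, Hspa5, Hsp90b1, Herpud1, Dnajb9, Pdia4 and Hyou1, while 22.9% of all genes had every liver library above every eWAT library. The size of these differences depended on the scaling. With library totals in place of the TMM factors, the median of all genes moved from 0.00 to -0.73 and that of the members from 1.25 to 0.51 on the log2 scale. The calls over all genes then went from 5427 higher and 5465 lower in liver to 2477 higher and 9143 lower. All 10 members still had a positive difference, but Xbp1 (0.04 ± 0.10, edgeR adjusted p = 0.739) and Dnajb9 (0.10 ± 0.10, edgeR adjusted p = 0.329) no longer passed the test.

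**Figure D1:**
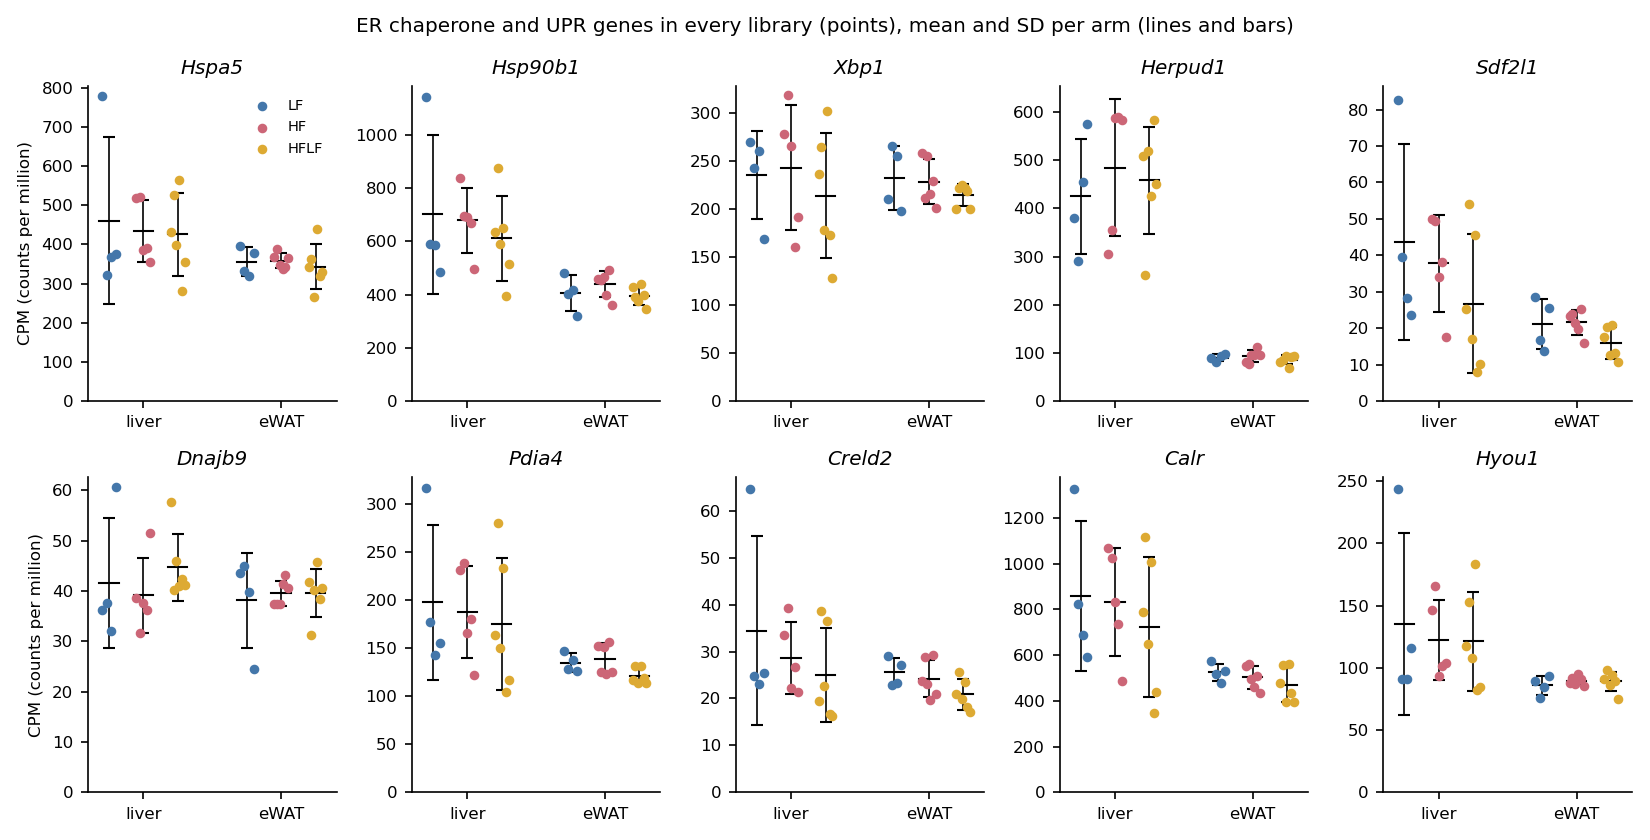
CPM of each gene (vertical axis, TMM-scaled within each tissue) in every library, grouped by tissue and arm; points are libraries, horizontal lines the mean and bars the SD of an arm. The liver library LF 1 stands at the top for 7 genes, the arms overlap in every panel, and Herpud1 shows the widest gap between the tissues.

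The comparison of the arms asks whether the father's diet left a difference in the F1 offspring, and for these genes none passed the test. In edgeR's quasi-likelihood test, 0 of 10 members passed an adjusted p of 0.05 in liver for HF minus LF, HFLF minus LF and HFLF minus HF, or in eWAT for the same 3 contrasts. The share of all genes that passed was 0% in each of these 6 contrasts. At an unadjusted p under 0.05 the genes numbered 492, 748 and 255 in liver and 1126, 1733 and 1486 in eWAT, in the same order. DESeq2 called 1, 7 and 0 genes in liver and 1, 62 and 47 in eWAT, and no member among them. In no contrast did all libraries of 1 arm lie above those of the other for any member, where this held for 1.34%, 0.943% and 0.19% of all genes in liver and for 0.926%, 1.23% and 0.757% in eWAT.

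Hspa5, the central chaperone, had 779, 322, 367 and 376 CPM in the liver LF libraries 1, 2, 3 and 6, and 518, 522, 385, 391 and 355 CPM in the HF libraries 1, 2, 3, 5 and 6. The 6 HFLF livers ran from 280 through a median of 416 to 564 CPM. LF 1 was far above all other livers, the other 3 LF livers lay in the lower part of the range, and the arms overlapped. The log2 difference was -0.09 ± 0.25 for HF minus LF and -0.11 ± 0.24 for HFLF minus LF (SE). In eWAT, Hspa5 had 396, 332, 319 and 379 CPM in LF, 337 to 387 (median 357) in HF and 267 to 439 (median 335) in HFLF. The spread there was narrow, and both the highest and the lowest eWAT library belonged to HFLF.

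Calr, the calcium-binding lectin chaperone, had 1328, 826, 690 and 591 CPM in the LF livers, 1070, 1025, 835, 738 and 485 in the HF livers, and 345 to 1118 with a median of 718 in the HFLF livers. The arms overlapped, with HFLF 5 and HFLF 6 (345 and 440) below every LF and HF liver, and the log2 difference of HFLF minus LF was -0.25 ± 0.33. In eWAT the values were 573, 517, 480 and 529 CPM in LF, 437 to 561 (median 502) in HF and 396 to 561 (median 457) in HFLF, again with overlap of all arms. Hsp90b1 ran from 395 to 1143 CPM over all livers and from 319 to 491 over all eWAT libraries. Hyou1 ran from 82.2 to 244 CPM in liver and from 75.2 to 98.3 in eWAT, where its highest library was only 1.31 times its lowest. None of the 6 contrasts moved Hsp90b1 or Hyou1 by more than 0.20 on the log2 scale.

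Sdf2l1, the BiP partner, varied most. It had 82.7, 39.6, 28.3 and 23.7 CPM in the LF livers, 49.8, 49.5, 33.9, 38.1 and 17.5 CPM in the HF livers, and 7.82 to 54.2 CPM with a median of 21.2 in the HFLF livers. The 2 lowest livers of all, HFLF 5 with 7.82 and HFLF 6 with 10.2 CPM, belonged to 1 arm, but that arm also held HFLF 2 with 54.2 CPM. The log2 difference of HFLF minus LF was -0.70 ± 0.54 (edgeR unadjusted p = 0.215, adjusted p = 0.902), and an interval of 2 SE around it ran from -1.78 to 0.38. In eWAT, Sdf2l1 had 28.6, 16.8, 13.8 and 25.4 CPM in LF, 15.8 to 25.3 (median 22.3) in HF and 10.8 to 20.9 (median 15.3) in HFLF. There the log2 difference of HFLF minus HF was -0.44 ± 0.20 (edgeR unadjusted p = 0.0386, adjusted p = 0.517), with the arms overlapping between 15.8 and 20.9 CPM. Dnajb9, the other BiP cofactor, ran from 31.7 to 60.8 CPM in liver and from 24.4 to 45.7 CPM in eWAT. Its log2 differences stayed between -0.09 and 0.19 in the 6 contrasts.

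Pdia4, the disulfide isomerase, had 317, 177, 143 and 155 CPM in the LF livers, 231, 238, 166, 181 and 123 in the HF livers and 104 to 280 (median 158) in the HFLF livers. In eWAT it ran from 126 to 148 CPM in LF, from 123 to 157 in HF and from 114 to 132 in HFLF, so that 4 of the 6 HFLF libraries (114 to 120 CPM) lay below every LF and HF library and the other 2 overlapped them. Its log2 difference of HFLF minus HF in eWAT was -0.20 ± 0.08 (edgeR unadjusted p = 0.024, adjusted p = 0.482). Creld2 had a log2 difference of -0.29 ± 0.13 for HFLF minus LF in eWAT (edgeR unadjusted p = 0.0428, adjusted p = 0.439). Its eWAT libraries ran from 22.8 to 29.0 CPM in LF and from 17.05 to 25.7 in HFLF. With Sdf2l1, these were the 3 smallest unadjusted p-values among the members, and none passed after adjustment over all genes.

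Xbp1, the transcription factor, had 270, 243, 261 and 169 CPM in the LF livers, 279, 319, 266, 160 and 192 in the HF livers and 128 to 302 (median 207) in the HFLF livers. Its eWAT values stayed within 198 to 266 CPM. Herpud1, the degradation gene, had 381, 291, 455 and 574 CPM in the LF livers, 306, 355, 587, 591 and 584 in the HF livers and 261 to 583 (median 479) in the HFLF livers. In both genes each arm held high and low livers, and the log2 differences between arms in liver lay between -0.19 and 0.19. Herpud1 in eWAT ran from 69.3 to 113 CPM.

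Over the 10 members, the median log2 difference in liver was -0.08 for HF minus LF, -0.17 for HFLF minus LF and -0.13 for HFLF minus HF, beside 0.00 for all genes in each. In eWAT it was 0.04, -0.10 and -0.11, beside 0.00, 0.01 and 0.00 for all genes. All 10 members had a negative value for HFLF minus HF in eWAT, from -0.0013 for Dnajb9 to -0.44 for Sdf2l1, beside 49.7% of all genes. In liver 9 of 10 were negative, beside 49.1% of all genes. Most members are correlated with each other across libraries, so these signs are not independent of each other. The liver values against LF rested on the library LF 1. Without it the median of the members became 0.24 for HF minus LF and 0.05 for HFLF minus LF, the sign turned for 7 members (the chaperones, Sdf2l1, Pdia4 and Creld2, not Dnajb9) in the first and for the same members except Sdf2l1 in the second, and Sdf2l1 in HFLF minus LF went from -0.70 to -0.19 ± 0.55. In the fit over both tissues, the difference of an arm contrast between liver and eWAT was called for 0 members in each of the 3 contrasts, where 0% of all genes were called. In 2 of these 3 contrasts the members' median also changed sign without liver LF 1, from -0.14 to 0.21 for HF minus LF and from -0.07 to 0.22 for HFLF minus LF.

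**Figure D2:**
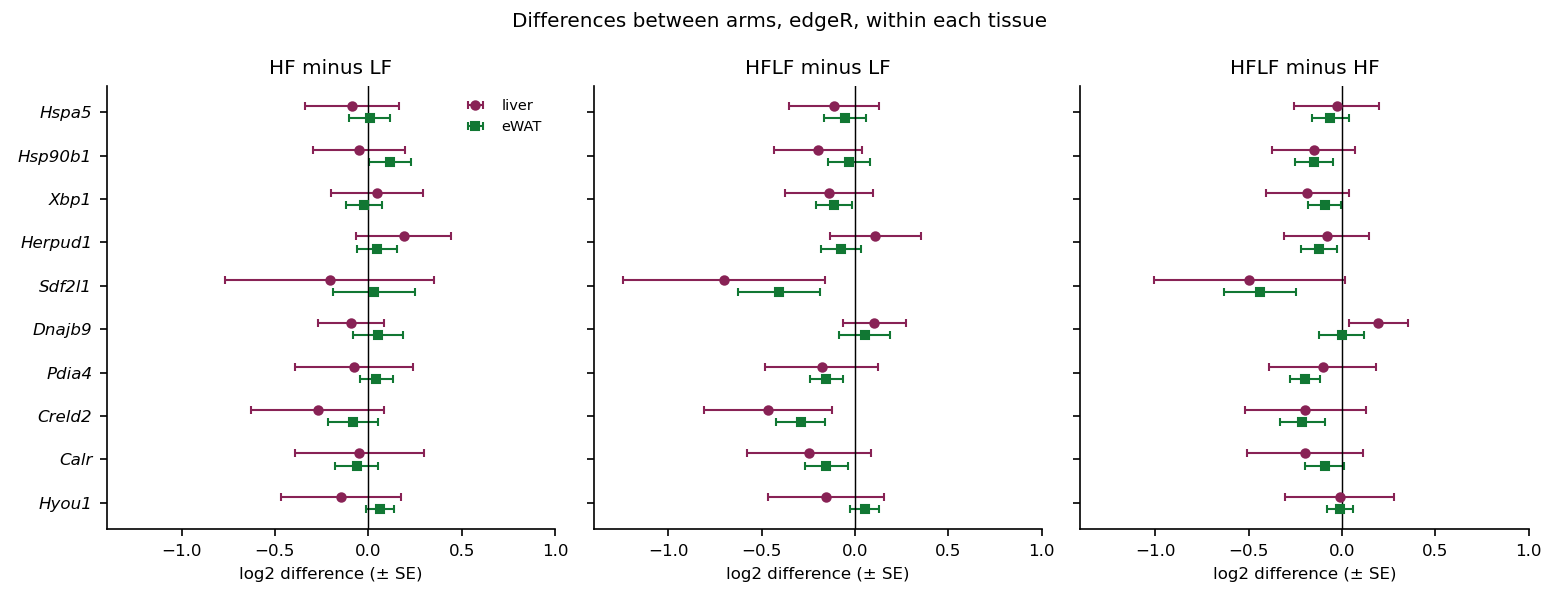
Log2 difference between arms (horizontal axis) with its standard error, from edgeR, for each gene in liver (circles) and eWAT (squares). The values of most genes lie near 0, the liver errors are wider than those of eWAT, and Sdf2l1 lies farthest to the left for HFLF minus LF at -0.70 in liver.

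Over the 15 livers Sdf2l1 had a 10.6-fold range, with 3.50-fold within LF, 2.85-fold within HF and 6.93-fold within HFLF, and its SD of log2 CPM of 0.93 was larger than that of 98.6% of liver genes, beside a median SD of 0.24 for all genes. The SDs of Calr (0.54), Creld2 (0.53), Pdia4 (0.47) and Hyou1 (0.46) were above those of 89.3%, 88.8%, 83.6% and 82.8% of genes. Herpud1 (0.40), Xbp1 (0.39), Hsp90b1 (0.38), Hspa5 (0.37) and Dnajb9 (0.27) varied less. In eWAT the SDs were smaller for all 10 members, from 0.10 for Hyou1 to 0.41 for Sdf2l1, and only 5.02% of eWAT genes had a smaller SD than Hyou1. Liver LF 1 was the highest library for 7 members, Hspa5, Hsp90b1, Sdf2l1, Pdia4, Creld2, Calr and Hyou1, and liver HFLF 5 the lowest for 6 of these, all but Creld2. These libraries had 15242586 and 10155788 counts, both within the range of the other livers. LF 1 also had the highest summed level of the mesothelium list, with 677 CPM beside 116 to 228 CPM in the other livers, from 6 of 10 listed genes. The 6 include the keratin genes Krt8 and Krt19. As a mean of log2 CPM, LF 1 had 1.84 for this list, within the 0.19 to 2.62 of the other livers. Which genes carry the sum is not given here, so it does not name a cell type. The part of these genes in the members' values in LF 1 was not tested.

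**Figure D3:**
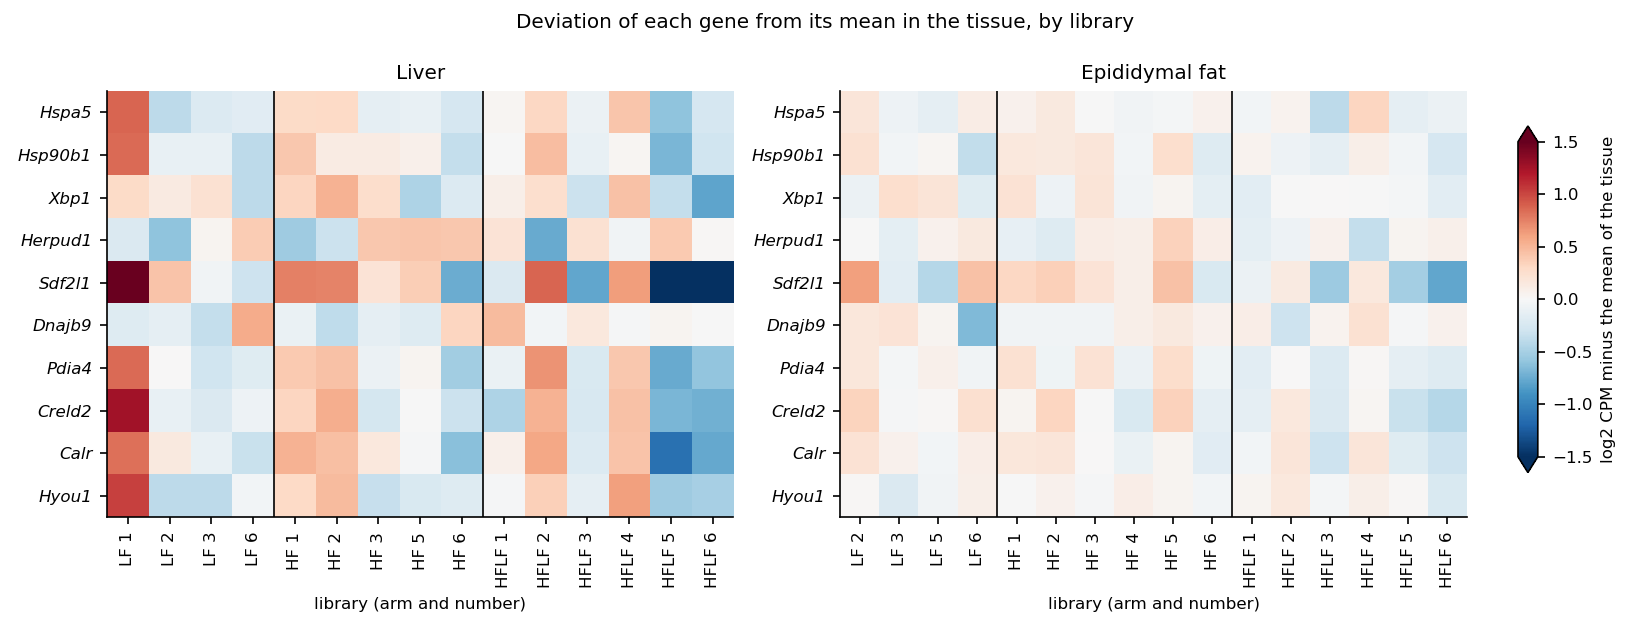
Log2 CPM of each gene in each library minus the gene's mean in that tissue (colour, clipped at 1.5), with libraries in columns ordered by arm and number. In liver, LF 1 and HFLF 2 are high and HFLF 5 and HFLF 6 low for most genes, while Herpud1 is low in HFLF 2 and high in HFLF 5, and the eWAT panel is paler.

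Most members varied together from liver to liver, while Herpud1 and Dnajb9 had negative correlations with them. Among the members, only the relations to Hspa5 were tested. Over the 15 livers, Hspa5 was related to Hyou1 with r = 0.96 (rho = 0.91), to Creld2 with r = 0.91 (rho = 0.76), to Pdia4 with r = 0.90 (rho = 0.84), to Hsp90b1 with r = 0.88 (rho = 0.81) and to Calr with r = 0.85 (rho = 0.82). The adjusted permutation p-values of r were 9e-05, 0.00012, 9e-05, 0.00018 and 0.000396 (two-sided, Benjamini-Hochberg over 18 relations in both tissues). The p-values of rho were 2e-05, 0.00148, 0.00018, 0.00035 and 0.0004 before adjustment. Sdf2l1 (r = 0.80, adjusted permutation p = 0.00131; rho = 0.75, permutation p = 0.00226) and Xbp1 (r = 0.61, adjusted permutation p = 0.0317; rho = 0.65, permutation p = 0.0108) also passed. Without the 2 livers farthest from the median of Hspa5, LF 1 and HFLF 4, these 7 values of r lay between 0.58 for Xbp1 and 0.92 for Hyou1. As deviations from the arm means they stayed between 0.61 and 0.96. The unadjusted permutation p of 1e-05 for Pdia4 and Hyou1 is the smallest that the 100000 resamples can give.

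Herpud1 (r = -0.47, rho = -0.43, adjusted permutation p = 0.119) and Dnajb9 (r = -0.25, rho = -0.28, adjusted permutation p = 0.417) had negative values with Hspa5 that did not pass. As a description over the pairs, the 7 folding genes (Hspa5, Hsp90b1, Sdf2l1, Pdia4, Creld2, Calr and Hyou1, a set put together after the values were seen) had 21 of 21 positive correlations in liver, from 0.76 to 0.97. Herpud1 was negative with all 7, from -0.67 with Pdia4 to -0.47, and Dnajb9 with all 7, from -0.43 to -0.16. Herpud1 and Dnajb9 were positive with each other, at 0.43. Xbp1 was positive with all 7, from 0.61 to 0.79. Liver HFLF 5, with the lowest Hspa5 (280 CPM), had 583 CPM of Herpud1, and HFLF 2, with 526 CPM of Hspa5, had the lowest Herpud1 (261 CPM), while LF 2 was low for both, with 322 and 291 CPM.

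In eWAT the members were coupled less tightly. Hspa5 was related to Calr (r = 0.77, adjusted permutation p = 0.00078; rho = 0.82, permutation p = 0.00017), Sdf2l1 (r = 0.69, adjusted permutation p = 0.00497; rho = 0.80, permutation p = 0.00032) and Creld2 (r = 0.55, adjusted permutation p = 0.0436; rho = 0.70, permutation p = 0.00325). Without HFLF 3 and HFLF 4, the libraries farthest from the median of Hspa5, these were 0.69, 0.77 and 0.69. The relations of Hspa5 to Hyou1 (r = 0.41), Pdia4 (0.38), Hsp90b1 (0.27), Dnajb9 (-0.09), Xbp1 (-0.20) and Herpud1 (-0.45) did not pass, though as deviations from the arm means Herpud1 did (r = -0.57, rho = -0.54, adjusted permutation p = 0.0379). All 21 pairs of the 7 genes were again positive, from 0.18 to 0.86. Whether the tissues differ in these correlations was not tested, and the spread of the members in eWAT was narrower.

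**Figure D4:**
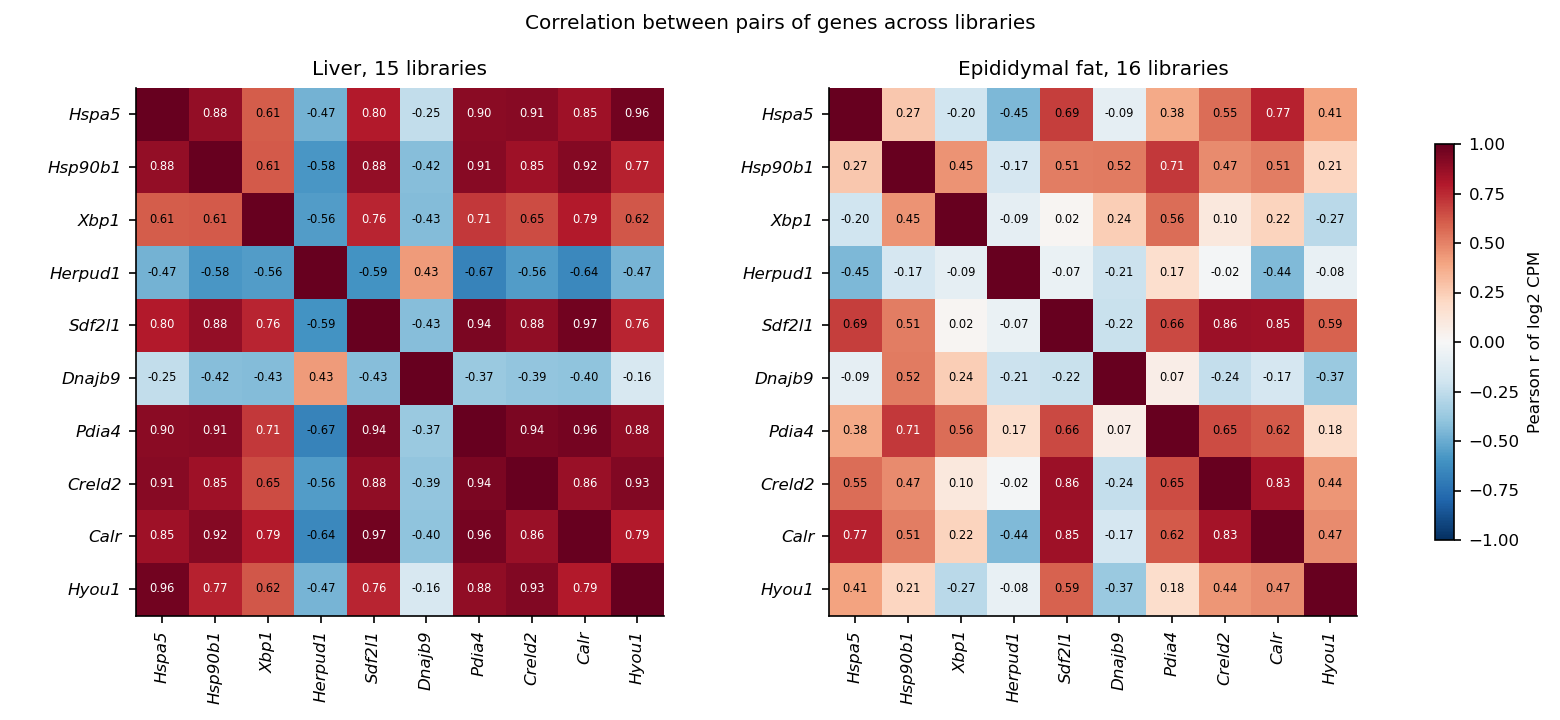
Pearson correlation of log2 CPM between each pair of genes (colour and printed value) over the 15 livers and the 16 eWAT libraries. In liver the 7 folding genes form a block of 0.76 to 0.97 that Herpud1 and Dnajb9 oppose, and in eWAT the block is weaker, at 0.18 to 0.86.

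Genes outside the 10 followed the same pattern in liver. By the correlation with the mean centred log2 CPM of the 10 members, among genes with a mean of at least 1 CPM, the most alike in liver were Dnajb11 (0.97), Pdia6 (0.96), Pdia3 (0.95), Slc35b1 (0.94), Manf (0.92), Mydgf (0.92), Scamp2 (0.91), Sec61a1 (0.91), Tmub2 (0.91) and Uggt1 (0.90). Dnajb11 encodes the J protein ERdj3, Pdia6 and Pdia3 encode disulfide isomerases, Sec61a1 the channel into the ER and Uggt1 the glycoprotein folding sensor. Of these 10 genes, 6 belong to the lists of ER genes kept for this comparison. The promoter of Pdia6 held an ERSE and that of Dnajb11 an ERSE-II, among the 7 of these 10 genes with a RefSeq promoter. In eWAT the most alike were Psd, Irf9, Gsdmd, Dlg4, Pcolce, Ostc, C1qa, AI467606, Cnp and Pdlim4, with 0.90 to 0.86, of which Ostc, a subunit of the oligosaccharyltransferase, is on a list.

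Correlations above 0.5 with the members' mean in liver were held by 14 of 15 genes of N-glycosylation and the calnexin cycle, 17 of 20 of translocation into the ER, 13 of 16 other ER chaperones and J proteins and 9 of 14 of oxidative folding. They were also held by 7 of 13 sensors and transcription factors of the UPR and by 9 of 22 genes of ER-associated degradation. Lower counts were those of the PERK branch, with 2 of 13, and of the cytosolic heat shock genes, with 3 of 17, beside 12.01% of all 12530 genes of that level. In eWAT the counts were 4 of 15, 5 of 20, 4 of 17, 6 of 14, 3 of 13, 1 of 22, 0 of 13 and 2 of 18 in the same order, beside 10.6% of all 14481 genes. These are correlations across libraries that share scaling and depth, and no test was made of the lists.

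For some members the level in liver went with the level in eWAT. Libraries of the same arm and number in both tissues were set side by side for 14 pairs; no label states that they come from the same mouse. Over all genes, the deviations of such pairs from their arm means had correlations of -0.13 to 0.15. Their median was 0.04, beside -0.01 for the other pairs of a liver and an eWAT library. This comparison was added after the data were seen. By r the relation was strongest for Sdf2l1 (r = 0.81, adjusted permutation p = 0.0048 over 10 relations; rho = 0.63, permutation p = 0.0188) and Calr (r = 0.78, adjusted permutation p = 0.00695; rho = 0.75, permutation p = 0.00271). Creld2 (r = 0.71, adjusted permutation p = 0.0171; rho = 0.79, permutation p = 0.00133) and Hyou1 (r = 0.61, adjusted permutation p = 0.0479; rho = 0.67, permutation p = 0.0113) also passed, with 0.65 and 0.59 without the 2 farthest pairs. HFLF 5 and HFLF 6 were the pairs lowest in liver for Sdf2l1 and Calr, and in eWAT they were at 13.1 and 10.8 CPM of Sdf2l1 and 434 and 396 CPM of Calr. Without these 2 pairs, the farthest from the median, r was 0.67 for Sdf2l1 and 0.69 for Calr. As deviations from the arm means the values were 0.82 for Sdf2l1, 0.84 for Calr, 0.79 for Creld2 and 0.60 for Hyou1, the last with an adjusted permutation p of 0.0564. As levels, Hsp90b1 (0.53), Herpud1 (0.52), Pdia4 (0.46), Xbp1 (0.43), Hspa5 (0.43) and Dnajb9 (-0.44) did not pass by r. Their rho was 0.60, 0.69, 0.60, 0.43, 0.33 and -0.19 in this order. The unadjusted permutation p of rho was 0.0243 for Hsp90b1, 0.00857 for Herpud1 and 0.0253 for Pdia4. Without the 2 farthest pairs r was 0.81, 0.68, 0.47, 0.42, 0.13 and -0.08 in the same order. By rho, Creld2 was highest and Sdf2l1 lay below Herpud1. Liver LF 1, the highest liver, is not among the 14, since no eWAT sample here carries its number.

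**Figure D5:**
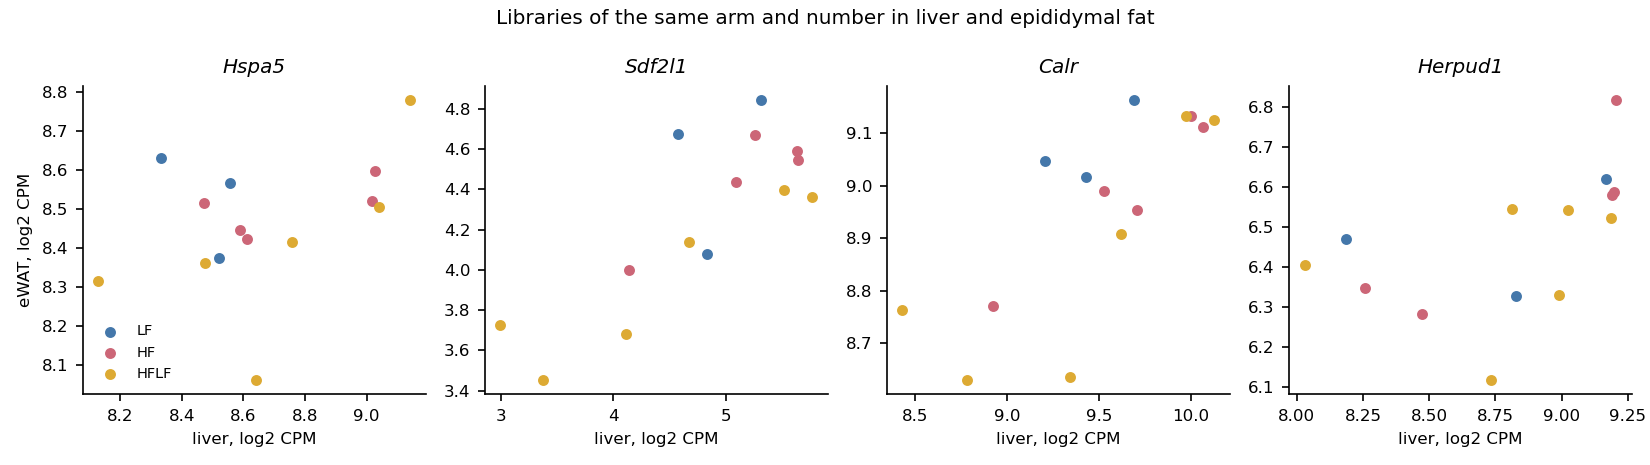
Log2 CPM in liver (horizontal) against log2 CPM in eWAT (vertical) for 14 pairs of libraries with the same arm and number, for Hspa5, Sdf2l1, Calr and Herpud1. Points of Sdf2l1 and Calr rise from left to right (r = 0.81 and 0.78, rho = 0.63 and 0.75). Hspa5 and Herpud1 have a lower r (0.43 and 0.52), with rho of 0.33 and 0.69.

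Clock genes were looked at after the data were seen, and only their relation to Hspa5 was tested. In eWAT, 11 of 14 clock genes had a relation to Hspa5 that passed an adjusted permutation p of 0.05 over 62 relations of clock, fasting and lipogenic genes in both tissues. Arntl, the activator of the clock also called Bmal1, was positive (r = 0.82, adjusted permutation p = 0.00227; rho = 0.79, permutation p = 0.00066). Npas2 was positive too (r = 0.79, adjusted permutation p = 0.00382, rho = 0.64, permutation p = 0.00834). It ran only from 0.143 to 3.53 CPM, with a median of 0.742, and its r was 0.51 without HFLF 3 and HFLF 4. Another 9 passed with a negative value, such as the output gene Tef (r = -0.83, adjusted permutation p = 0.00227; rho = -0.84, permutation p = 0.00016), the repressor Ciart (r = -0.79, adjusted permutation p = 0.00248; rho = -0.77, permutation p = 0.00089) and the output gene Dbp (r = -0.76, adjusted permutation p = 0.00382; rho = -0.71, permutation p = 0.00291). Without HFLF 3 and HFLF 4 the values of Arntl, Tef, Ciart and Dbp were 0.79, -0.78, -0.73 and -0.66. Nr1d1 (r = 0.17, rho = 0.24) and Nfil3 (r = 0.17, rho = 0.12), which also repress clock genes, had positive values that did not pass (adjusted permutation p = 0.584 for both). Beside other members, as a description, Arntl had r from -0.69 with Herpud1 and -0.07 with Xbp1 to 0.79 with Calr, and Dbp from -0.56 with Hyou1 to 0.55 with Herpud1. Arntl ran from 1.64 to 11.3 CPM in eWAT and Dbp from 58.8 to 235. In liver the values of Arntl (r = -0.04, rho = -0.18) and Dbp (r = 0.23, rho = 0.35) did not pass, and 1 of 13 clock genes did, the repressor Cry1 (r = -0.73, adjusted permutation p = 0.011; rho = -0.65, permutation p = 0.01), with r = -0.56 without LF 1 and HFLF 4. Other clock genes had larger values with other members in liver, as a description. Nr1d1 had r from -0.70 with Herpud1 to 0.79 with Calr and Xbp1, beside 0.59 with Hspa5. Hlf ran from -0.81 with Xbp1 to 0.62 with Herpud1, while Arntl stayed between -0.35 with Hsp90b1 and 0.13 with Hyou1.

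Cry1 was negative with Hspa5 in eWAT too (r = -0.63, adjusted permutation p = 0.026; rho = -0.61, permutation p = 0.0127), and its sign was the same in both tissues for all members but Dnajb9. In liver, Cry1 was negative with Calr (-0.87), Pdia4 (-0.84), Sdf2l1 (-0.82), Creld2 (-0.80), Hsp90b1 (-0.79), Xbp1 (-0.77) and Hyou1 (-0.71), and positive with Herpud1 (0.70) and Dnajb9 (0.50). In eWAT it was negative with Calr (-0.86), Sdf2l1 (-0.63), Creld2 (-0.62), Hsp90b1 (-0.60), Hyou1 (-0.44) and Pdia4 (-0.44), -0.25 with Xbp1 and -0.10 with Dnajb9, and positive with Herpud1 (0.68). Cry1 itself ran from 3.98 to 18.3 CPM in liver and from 10.3 to 21.2 in eWAT. The hour at which tissue was taken is not given in the sources used here, and the part of the clock genes in the values of the members was not tested.

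Of the fasting genes, 0 of 9 in liver and 2 of 7 in eWAT had a relation to Hspa5 that passed, Pck1 (r = -0.69) and Angptl4 (r = 0.69). Of the lipogenic genes of the fed state, Me1 (r = -0.63) passed in liver and Srebf1 (r = -0.77) and Acaca (r = -0.64) in eWAT, out of 10 and 9.

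Markers of other cells moved with some members in eWAT. The mean of the plasma cell list, 9 of 10 genes measured, correlated with Sdf2l1 at 0.66 and with Hspa5 at 0.29, and that of the B cell list, 10 of 10 measured, at 0.64 and 0.33. For the macrophage list, 9 of 10 measured, it was 0.57 and 0.41. Lists of other than immune cells had such values too. The endothelium list had 0.26 with Sdf2l1 and 0.44 with Hspa5, the highest of all lists for Hspa5. The mesothelium list had 0.45 and -0.07, and the adipocyte list -0.40 and -0.29. The plasma cell list contains Xbp1 itself, and Derl3 of the degradation list. Summed B cell genes were 17.2 to 539 CPM in LF, 17.1 to 208 in HF and 11.7 to 25.4 in HFLF, and summed plasma cell genes 268 to 850, 272 to 607 and 245 to 314. LF 2, with the most B cell and plasma cell RNA, also had the highest Sdf2l1 and Calr in eWAT, and HF 5, which came second on both lists, the highest Hsp90b1, Herpud1, Pdia4 and Creld2. Among the plasma cell genes, Jchain ran from 0.328 to 489 CPM and Mzb1 was not in the table. The part of these cells in the members' values was not tested. Without the 3 eWAT libraries with high B cell genes the members' medians were 0.05 for HF minus LF, -0.10 for HFLF minus LF and -0.09 for HFLF minus HF. In liver, the list with the highest correlation to Hspa5 was that of the exocrine pancreas at 0.55, from 2 of 10 genes measured, Cela1 and Cela2a. The listed genes Prss1, Prss2, Cpa1, Cpb1, Pnlip, Amy2a5, Ctrb1 and Clps were not in the liver table. Summed levels of the 2 genes were 19.3 to 38.1 CPM in LF, 13.8 to 35.6 in HF and 11.9 to 36.1 in HFLF, and their part was not tested. Genes of the epididymis were not measured in either tissue, with 0 of 10 in the tables.

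The wider ER and stress lists gave 0 called genes in each of the 6 arm contrasts, as did all genes. Of the genes of translocation into the ER, 19 of 20 had a negative value in liver for HF minus LF (median -0.10) and 19 of 20 for HFLF minus LF (median -0.19), beside 50.6% and 49.9% of all genes. Without liver LF 1, 5 of 20 were negative for HF minus LF (median 0.06) and 14 of 20 for HFLF minus LF (median -0.03). The smallest unadjusted p there was that of Ssr4, a subunit of the translocon-associated complex, at -0.26 ± 0.08 for HFLF minus LF (edgeR unadjusted p = 0.0046, adjusted p = 0.807). Oxidative folding genes had 12 of 14 and the N-glycosylation genes 13 of 15 negative values for HFLF minus LF in liver, with medians of -0.16 and -0.12, which without LF 1 became 10 of 14 and 8 of 15 with medians of -0.05 and -0.01. Prdx4, the peroxidase of the ER, had -0.21 ± 0.07 and Ostc -0.37 ± 0.18 there, the latter -0.13 without LF 1. Of the PERK branch, which acts through ATF4, Nupr1 had -1.47 ± 0.40 for HFLF minus LF (edgeR unadjusted p = 0.00178, adjusted p = 0.639) and -1.20 ± 0.40 for HF minus LF, which without liver LF 2 were -0.75 and -0.49. In eWAT the cytosolic heat shock genes had 16 of 18 positive values for HFLF minus LF (median 0.13), beside 8334 of 15987 for all genes. Hsp90aa1 was at 0.38 ± 0.13 and Dnajb4 at 0.40 ± 0.13. For HF minus LF in eWAT 15 of 18 heat shock genes were positive (median 0.09), beside 7842 of 15987 for all genes. For HFLF minus HF 9 of 18 were positive (median 0.01), beside 8046 of 15987. Fkbp11, an ER prolyl isomerase, had -0.95 ± 0.28 for HFLF minus LF in eWAT (edgeR unadjusted p = 0.00361, adjusted p = 0.282). The sensor gene Ern1, which encodes IRE1, had -0.27 ± 0.09 for HFLF minus HF in eWAT. None of these passed after adjustment over all genes.

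Between the tissues, on the TMM scale, called higher in liver were 13 of 17 other ER chaperones and J proteins (4 lower, median log2 difference 1.08), 11 of 14 genes of oxidative folding (2 lower, median 1.19), 12 of 15 of N-glycosylation (3 lower, 0.78), 16 of 22 of ER-associated degradation (5 lower, 0.59) and 16 of 20 of translocation (2 lower, 0.55). The sensors and transcription factors split, with 6 higher and 6 lower of 13 (median 0.02). Creb3l3, a transcription factor of the hepatocyte ER, was higher in liver by 9.62 ± 0.18 and Ern1 by 2.33 ± 0.10, while Creb3l1 was lower by a log2 difference of -3.47 ± 0.22. Of the PERK branch, 8 of 14 genes were called lower in liver, beside 42.9% of all genes, and 4 higher (median -0.89). Examples are Asns, the asparagine synthetase, at -5.11 ± 0.21 and Vldlr, a lipoprotein receptor, at -6.23 ± 0.25, while Fgf21, the hepatic hormone, was at 3.16 ± 0.47. With library totals, the median of all genes moved to -0.73. The medians were then 0.34 for the other chaperones (9 higher, 7 lower), 0.45 for oxidative folding (9 and 3) and 0.04 for N-glycosylation (7 and 7). They were -0.15 for degradation (6 and 12), -0.19 for translocation (6 and 11), -0.71 for the sensors (4 and 8) and -1.63 for the PERK branch (3 and 11). The sign of the median turned for degradation and translocation, but both stayed above the median of all genes. The sensors, which were split on the TMM scale, lay near the median of all genes on both scales.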

How the data were processed

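The members and the gene lists were chosen with earlier results of these data known. The submitters' processing notes name STAR and the build GRCm38.p6. The aligner's version, the counting tool and the strand setting are not stated there. The authors deposited whole-number counts per gene, already filtered on CPM by the authors, as the table names state. Deposited RPKM values were not used, because the length they imply for a gene differed between libraries by a median of 83.7-fold in liver and 88.6-fold in eWAT; RPKM here was computed from CPM and exon length (GENCODE M21). All 31 libraries matched a column.

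From the counts, edgeR 4.0.16 (R 4.3.3) gave TMM factors, quasi-likelihood tests with 1 term per arm in each tissue, and a fit of all 31 libraries over the 12735 shared genes for the tissue comparison. Its filter on low counts removed 0 genes. SEs are the unshrunk coefficient over the root of F, and p-values were adjusted by Benjamini-Hochberg over all genes tested. Log2 CPM had a prior count of 2. Relations across libraries used Pearson's r and Spearman's rho with two-sided permutation p-values (100000 resamples). The floor of 3 counts corresponds to between 0.174 and 0.325 CPM per liver library, and between 0.110 and 0.323 per eWAT library, for counting error only. No label says that numbered samples are separate animals, so p-values measure the spread between these samples. The closest pair of libraries differed by a chi-square per gene of 7.66, so none was counted as a duplicate.

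Alternatives were DESeq2 1.42.0, limma 3.58.1 (voom), RLE factors, library totals, a filter at a mean of 5 CPM or none, 2 arms only, a replicate block, and left-out libraries. Library totals in the fits, the testis limit of 1, the relations across tissues, to clock, fasting and lipogenic genes, ERSE-II, and the values of the wider lists without 1 library or with library totals were added after the data were seen. Named genes were all 10 members, the 2 genes of smallest unadjusted p per list and arm contrast, the 2 highest and 2 lowest per list between tissues, and the 10 most alike per tissue; the text gives some of these, and clock genes were named after their values were seen. Fits were tested on simulated data.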

Additional observations from a re-analysis of the deposited data

Results flagged for a closer look

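In 60 groups of 4 to 6 libraries, 10 genes in 3 arms of 2 tissues, 1 library stood apart from its group by Dixon's ratio in 5 groups, where chance gives about 1 in 20, or 3 groups. Of these 5, 4 are the liver library LF 1, so they are not independent of each other. It had 779 CPM of Hspa5 beside 322 to 376 in the other LF livers, 1143 CPM of Hsp90b1 beside 486 to 591, 64.5 CPM of Creld2 beside 23.1 to 25.5, and 244 CPM of Hyou1 beside 90.8 to 116. The other is liver HFLF 1, with 57.7 CPM of Dnajb9 beside 40.1 to 46.0 in the other HFLF livers. No eWAT group had such a library.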

How the results depend on the processing

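No member was called in any arm contrast or tissue difference of arm contrasts under any alternative run, while signs of small values changed with it. Counts of all genes past 0.05, which were 0 in edgeR, became with DESeq2 1 (liver HF minus LF), 7 (liver HFLF minus LF), 1 (eWAT HF minus LF), 62 (eWAT HFLF minus LF), 47 (eWAT HFLF minus HF), and 23 and 6 for the tissue differences of HFLF minus LF and HFLF minus HF. Without the 5 eWAT libraries with testis genes, which leaves of LF only LF 2, assumed to vary like the others and the library with the most B cell and plasma cell RNA, they were 338 for eWAT HFLF minus LF and 1 and 46 for the tissue differences of HF minus LF and HFLF minus LF; the members' medians in eWAT were then -0.12 for HF minus LF and -0.27 for HFLF minus LF. Without the libraries with high B cell genes, the tissue difference of HFLF minus LF had 17. The cause of these changes was not tested. Leaving out 1 library in turn gave 0 to 13 genes for eWAT HFLF minus LF (13 without LF 5) and 0 to 1 for the tissue differences of HFLF minus LF and HFLF minus HF.

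The members' median with 1 library left out ran from -0.19 to 0.24 (liver HF minus LF), -0.29 to 0.05 (liver HFLF minus LF), -0.27 to -0.05 (liver HFLF minus HF), -0.0017 to 0.08 (eWAT HF minus LF), -0.14 to -0.08 (eWAT HFLF minus LF), -0.16 to -0.09 (eWAT HFLF minus HF) and 1.12 to 1.30 (liver minus eWAT). With library totals, the last was 0.51 and 5 relations to Hspa5 passed in eWAT in place of 3; 6 to 8 passed in liver and 2 to 3 in eWAT with 1 library left out.

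With the replicate number as a block, liver HFLF minus LF had 1 gene past 0.05, the other arm contrasts 0, and the members' median for liver HF minus LF was 0.02. Same-numbered libraries of different arms had correlations of -0.15 to 0.47 in liver, with a median of 0.125 beside -0.05 for other pairs. In eWAT these were -0.44 to 0.46, with a median of 0.167 beside -0.02. No label gives a batch, and the main fits left the number out. Whether the numbers mark something shared across arms was not tested. Treating liver and eWAT samples that share an arm and a number as 1 animal, all 10 members were called between tissues, with a median of 1.08. The block ended no call of a member.

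With 4 to 6 libraries a group and 1 liver, LF 1, deciding the sign of most differences from LF, small differences between arms were not detectable here.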
